A study of Mesocricetus auratus with 21 samples.

Results

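The genes described here are those whose level in wild-type golden hamster testis was highest at 21 days postpartum (dpp). Every gene was scored with L, the log2 ratio of the lowest wild-type level at 21 dpp to the highest level in any other wild-type library, with 1 CPM added to each, CPM being the count of a gene scaled to a fixed library total. A gene was taken when both 21 dpp libraries had at least 10 CPM and L was above 0. Of 22285 genes in the deposited table, 7336 reached 10 CPM and 146 passed, so the limit of 200 genes set in the rule was not reached. Tex101, Slc25a31, Sycp3 and Rnf17 passed and were left out by name, which left 142 members. The members were thus chosen by their wild-type CPM values, which are given as a description, with no test.

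Spermatogonia, the mitotic germ cells of the testis, give rise to spermatocytes, which pair and recombine their chromosomes in meiosis and then become spermatids. In the first wave of spermatogenesis these cell types appear in that order as the animal ages. Paired chromosomes are held together by the synaptonemal complex, and their telomeres are attached to the nuclear envelope. MOV10L1 is an RNA helicase of germ cells that is required for the production of piRNAs, the small RNAs that guide PIWI proteins to retrotransposon transcripts.

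Whole testes of Mov10l1+/+ (wild-type) and Mov10l1-/- hamsters were sampled at birth (0 dpp), at 9, 13 and 21 dpp and in adulthood, and each genotype and age gave 2 RNA-seq libraries. Wild type of 9 dpp had a further one, which made 21 in all. The Mov10l1-/- animals lack exon 20 of the gene, deleted with CRISPR–Cas9 in the line of 1 transmitting founder female and outcrossed before homozygotes were bred. The adults of the wild-type group were aged 65 and 23 weeks and those of the Mov10l1-/- group 63 and 53 weeks, so these groups differed in age as well as genotype. The youngest ages, 0 and 9 dpp, had single reads of 75 nucleotides and the others paired reads of 150, so tests between ages were made only among 13 dpp, 21 dpp and adults. At 9 dpp both Mov10l1-/- libraries bear 1 and the same animal code, and of the wild-type libraries only replicate 3 shares its first part. The codes at 13 dpp share their first part between genotypes for replicate 1 and again for replicate 2, and at 21 dpp wild-type replicate 2 shares it with Mov10l1-/- replicate 1. At 0 dpp both Mov10l1-/- codes share their first part, and no wild-type code of that age has it. The labels do not say what that part stands for. At 0 dpp, and at 9 dpp without wild-type replicate 3, genotype and that part cannot be told apart. Library totals ranged from 3550217 (wild-type 13 dpp replicate 2) to 77527451 counts. Mov10l1 itself was at 18.9 CPM or more in every wild-type library, and at each age the highest Mov10l1-/- library lay below the lowest wild-type one.

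Some libraries stood apart and touch the results on these genes. Wild-type 21 dpp replicate 1 was higher in CPM than replicate 2 for 137 of the 142 members, with a median ratio of 1.61. Over all genes with at least 10 CPM in both libraries that ratio was 1.70, and in replicate 2 a single gene took 23.7% of the counts. Membership therefore rested mostly on replicate 2. When library totals were scaled by TMM (edgeR's trimmed mean of M-values), 196 genes passed and 99 were shared, which is 69.7% of the members and 50.5% of the alternative set. Without replicate 2 in the rule, 194 genes passed and 92 were shared. Among Mov10l1-/- libraries of 13 dpp, replicate 1 held 66.5 CPM and replicate 2 12.6 CPM summed over the 23 members that were most depleted at 21 dpp, and all 23 were higher in replicate 1. At 9 dpp the same 23 members summed to 58.9 CPM in wild-type replicate 3, below the Mov10l1-/- libraries (67.0 and 75.9 CPM) and apart from wild-type replicates 1 and 2 (149.6 and 188.5 CPM).

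Names could be given to 20 members. The deposited table names genes by Ensembl identifier, and symbols came from the supplementary gene lists of the study, which hold genes that differed between genotypes in some tissue or age. Of the members, 17 had a symbol, 3 had a description only and 122 had no name in the tables used here. The named members are thus a selected subset, and counts over all 142 members are given beside them. On the MesAur1.0 assembly the 20 positioned members lay on 18 scaffolds. The histone genes H2aw and ENSMAUG00000010700 (described as histone H3.1) were 13803 bases apart on one scaffold. Both belong to multigene families whose near-identical copies share reads, so their counts are uncertain.

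In wild-type testes the margin of the peak was small for most members. L had a median of 0.25, equal to a ratio of 1.19, with quartiles of 0.12 and 0.54 on the log2 scale. It was at least 1 for 12 members and under 0.1 for 31. The wild-type mean at 13 dpp was 46.0% of that at 21 dpp for the median member, with a range from 0.456 to 88.3%. The adult mean was 43.9% of it for the median member and ranged from 12.6 to 75.6%. The next highest wild-type age was the adult for 57 members, 13 dpp for 48, 0 dpp for 28 and 9 dpp for 9.

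The clearest peak was that of Gm364 (L = 1.90, ENSMAUG00000018307), described in the gene lists as similar to a transmembrane 9 superfamily member. It measured 309 and 249 CPM in the wild-type libraries of 21 dpp, 3.77 and 10.4 CPM at 13 dpp and 66.2 and 43.8 CPM in adults. In Mov10l1-/- testes it measured 1.82 and 0 CPM at 13 dpp, 0.157 and 0.328 CPM at 21 dpp, and 10.2 and 8.77 CPM in adults. The Mov10l1-/- libraries of 21 dpp were the lowest of their genotype with the exception of 1 library of 13 dpp, and both lay far below every wild-type library. The unnamed genes ENSMAUG00000004259 (L = 1.88) and ENSMAUG00000015167 (L = 1.66) came next. The first measured 71.5 and 34.7 CPM in wild type and 0.0392 and 0.177 CPM in Mov10l1-/- at 21 dpp, and the second 51.1 and 27.9 CPM against 1.25 and 1.92 CPM. For all 3 genes the genotypes did not overlap at 21 dpp.

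At the other end of the rule, the members of lowest L were unnamed, at 0.0069, 0.0030 and 0.0020. The genes just outside were Cep78, which encodes a centrosomal protein, at -0.0015, and a pair of unnamed genes at -0.0046 and -0.0079. Cep78 measured 54.7 and 49.5 CPM in wild type at 21 dpp and 49.6 CPM in 1 wild-type library of 13 dpp, so that single library kept it out.

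**Figure D1:**
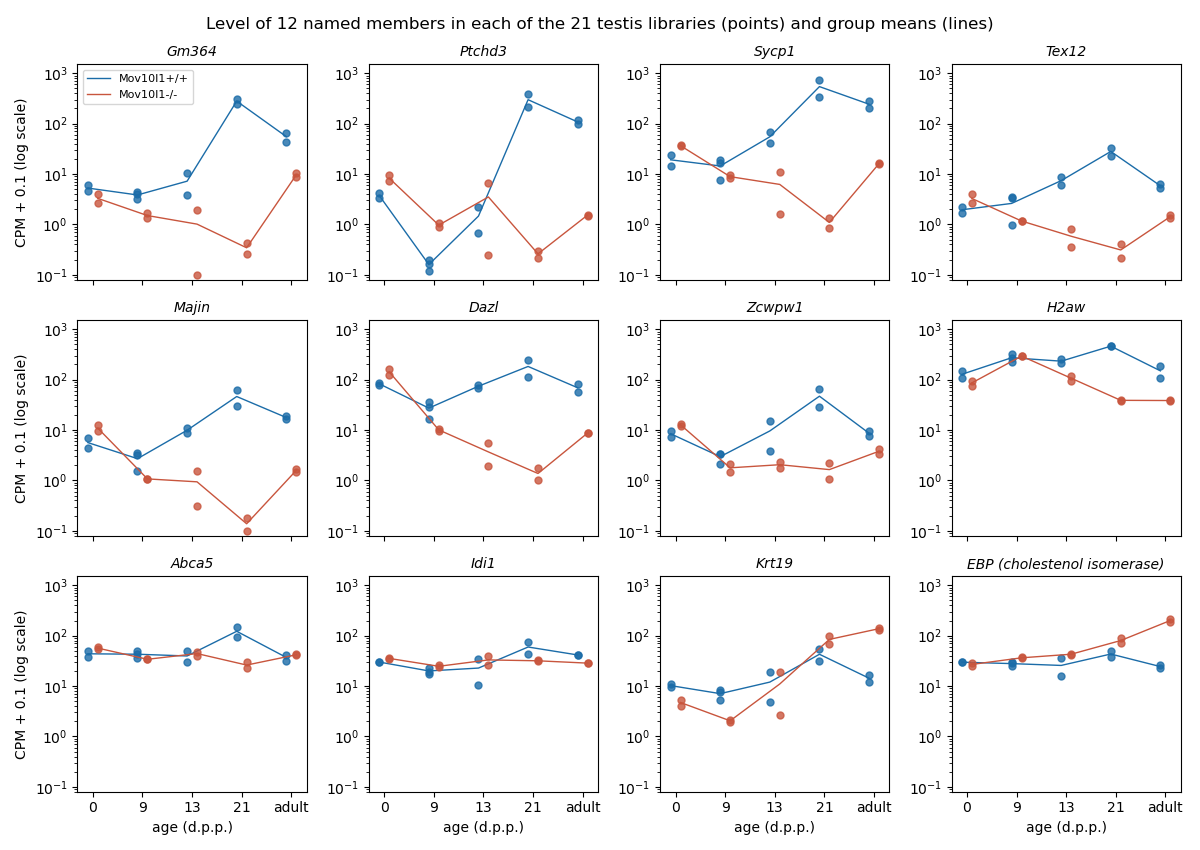
Level of 12 named members in each of the 21 libraries, as CPM plus 0.1 on a log axis, against age for Mov10l1+/+ (blue) and Mov10l1-/- (red), with points for libraries and lines for group means. Gm364, Ptchd3, Sycp1, Tex12, Majin and Dazl were near the bottom of the axis in Mov10l1-/- at 21 dpp, whereas Krt19 and the EBP gene were above wild type there and in adults.

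Members with a role in meiotic chromosomes were abundant in wild type at 21 dpp and far lower in Mov10l1-/- of that age. Sycp1 encodes the transverse filament of the synaptonemal complex. It measured 747 and 337 CPM in wild type at 21 dpp, against 68.9 and 40.3 CPM at 13 dpp and 200 and 285 CPM in adults. In Mov10l1-/- it measured 10.7 and 1.48 CPM at 13 dpp, 0.745 and 1.24 CPM at 21 dpp and 16.3 and 15.4 CPM in adults. The genotypes did not overlap at any of these 3 ages, and at 21 dpp the Mov10l1-/- mean was 0.183% of the wild-type mean.

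Tex12 encodes a protein of the central element of the same complex. It measured 32.8 and 23.0 CPM in wild type and 0.118 and 0.303 CPM in Mov10l1-/- at 21 dpp, and 6.26 and 5.17 CPM against 1.42 and 1.22 CPM in adults. Majin encodes a membrane protein that joins meiotic telomeres to the nuclear envelope. It measured 62.6 and 29.7 CPM in wild type at 21 dpp, whereas the Mov10l1-/- libraries held 0 and 3 counts, the latter equal to 0.0758 CPM. Zcwpw1 encodes a reader of the histone marks placed at recombination hotspots. It measured 65.5 and 28.1 CPM in wild type and 0.980 and 2.10 CPM in Mov10l1-/- at 21 dpp. In each of these genes both wild-type libraries of 21 dpp lay above both Mov10l1-/- ones.

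Dazl encodes an RNA-binding protein of germ cells that acts on translation. At 21 dpp it measured 250 and 115 CPM in wild type and 0.901 and 1.64 CPM in Mov10l1-/-. At 13 dpp it measured 69.3 and 78.6 CPM in wild type and 5.32 and 1.83 CPM in Mov10l1-/-, and in adults 56.1 and 81.7 CPM against 8.52 and 8.72 CPM. Caprin2, of a family of RNA-binding proteins, measured 82.1 and 42.7 CPM in wild type and 2.39 and 4.83 CPM in Mov10l1-/- at 21 dpp. Dazl was thus under 1% of wild type and Caprin2 5.78%.

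Ptchd3 encodes a protein with a patched domain. Its wild-type level rose from 2.15 and 0.563 CPM at 13 dpp to 379 and 217 CPM at 21 dpp and was 97.5 and 118 CPM in adults, values that chose it and carry no test. In Mov10l1-/- it measured 6.65 and 0.145 CPM at 13 dpp, 0.118 and 0.202 CPM at 21 dpp and 1.47 and 1.39 CPM in adults. The genotypes overlapped at 13 dpp and did not at 21 dpp or in adults. The histone H3.1 gene measured 1438 and 983 CPM in wild type and 3.13 and 3.87 CPM in Mov10l1-/- at 21 dpp, and H2aw, a histone H2A gene, 458 and 466 CPM against 40.1 and 37.4 CPM.

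Other named members were reduced less. Abca5, an ABC transporter gene, measured 150 and 93.9 CPM in wild type at 21 dpp and 22.6 and 29.5 CPM in Mov10l1-/-, and its adult libraries overlapped (31.8 and 42.0 CPM against 40.5 and 42.9 CPM). Idi1, an enzyme gene of isoprenoid and cholesterol synthesis, measured 75.4 and 43.6 CPM against 30.7 and 32.5 CPM at 21 dpp. Rint1, a gene of vesicle traffic between Golgi and endoplasmic reticulum, measured 62.0 and 41.3 CPM against 20.5 and 27.6 CPM. Cbr4, a carbonyl reductase gene, measured 22.8 and 14.2 CPM against 11.2 and 16.8 CPM, and its genotypes overlapped.

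Krt19, which encodes an epithelial keratin, and the gene described as EBP cholestenol delta-isomerase, an enzyme of cholesterol synthesis, went the other way. Krt19 measured 53.4 and 32.0 CPM in wild type at 21 dpp and 67.9 and 101 CPM in Mov10l1-/-, and in adults 16.6 and 11.8 CPM against 145 and 130 CPM. The EBP gene measured 49.1 and 37.2 CPM against 71.1 and 89.0 CPM at 21 dpp and 25.5 and 23.0 CPM against 189 and 211 CPM in adults. The gene described as the KIAA1210 ortholog overlapped at 21 dpp (633 and 290 CPM against 263 and 411 CPM) but not in adults, with 176 and 197 CPM against 1216 and 1270 CPM. For these 3 genes the highest Mov10l1-/- age was the adult.

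**Figure D2:**
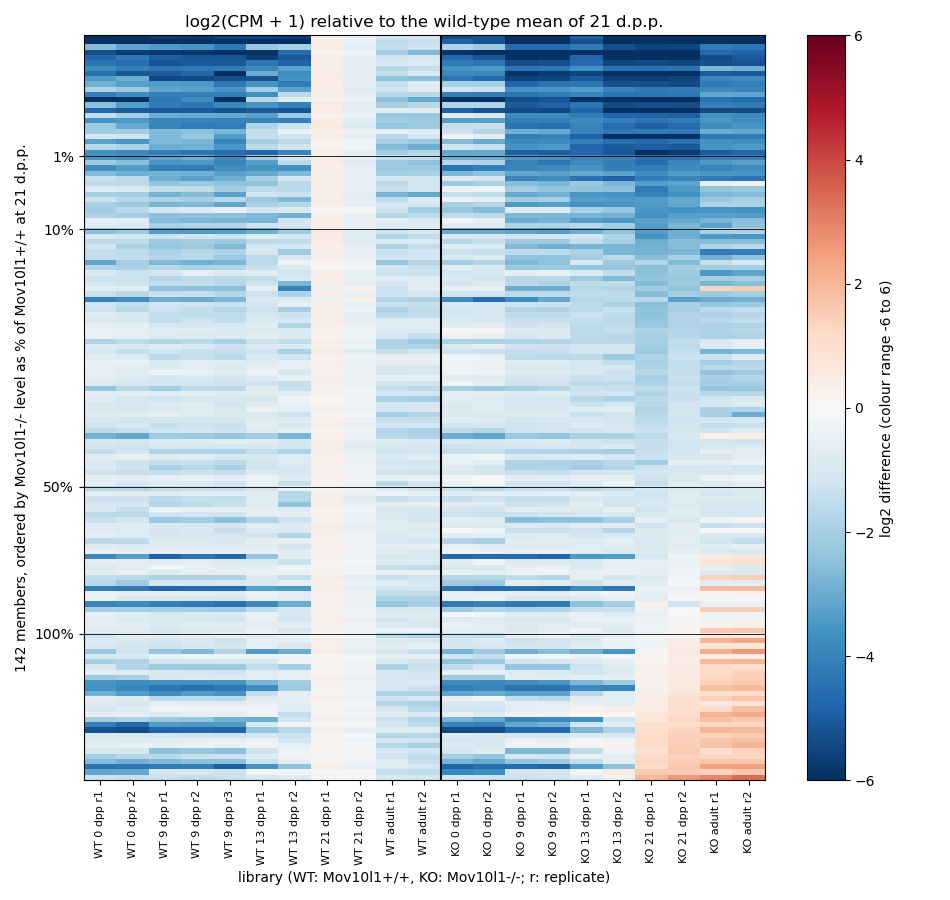
Level of the 142 members in each library as log2(CPM + 1) minus the log2 of the wild-type mean of 21 dpp plus 1, with members ordered from the lowest (top) to the highest Mov10l1-/- level at 21 dpp as a percentage of wild type. The 23 members above the 1% line summed to 66.5 and 12.6 CPM in Mov10l1-/- at 13 dpp and to 8.39 and 11.8 CPM at 21 dpp, and the 28 below the 100% line had means at or above the wild-type mean in Mov10l1-/- at 21 dpp.

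Across all 142 members the Mov10l1-/- mean at 21 dpp was 35.7% of the wild-type mean for the median member and ranged from 0.0494 to 509%. It was under 1% for 23 members, 1 to 10% for 14, 10 to 50% for 49, 50 to 100% for 28 and 100% or more for 28. Of the 23 lowest, 6 had a symbol (Gm364, Tex12, Ptchd3, Majin, Dazl and Sycp1), and of the 28 highest only Krt19 had one. Both Mov10l1-/- libraries lay below both wild-type libraries for 101 members, above both for 21, and the libraries overlapped for 20. Of all genes tested 33.5% lay below and 25.4% above. At a Benjamini-Hochberg adjusted p below 0.01 in the quasi-likelihood test of edgeR, 85 of 142 members were lower and 15 higher in Mov10l1-/- at 21 dpp, where 20.9% of all genes tested were lower and 17.1% higher. The median log2 fold change was -1.28 over the members and 0.04 over all genes. This contrast uses the same wild-type libraries that chose the members for high levels, so nothing is read from these counts. Within whole testes, fewer cells of a type and less RNA per cell cannot be told apart.

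The groups above were set by the levels at 21 dpp, so their sums at that age follow from the grouping and are given as a description. The 23 members under 1% summed to 4434 and 2565 CPM in wild type at 21 dpp, 1014 and 1089 CPM in adult wild type, 8.39 and 11.8 CPM in Mov10l1-/- at 21 dpp and 120 and 113 CPM in adult Mov10l1-/-. At 0 dpp their sum was 223 and 184 CPM in wild type and 358 and 296 CPM in Mov10l1-/-, so it was not low in Mov10l1-/- at birth. The 28 members at 100% or more summed to 2063 and 1496 CPM in wild type and 2749 and 3650 CPM in Mov10l1-/- at 21 dpp, and to 754 and 723 CPM against 4887 and 5356 CPM in adults. In Mov10l1-/- the sum over all members was largest in adults.

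**Figure D3:**
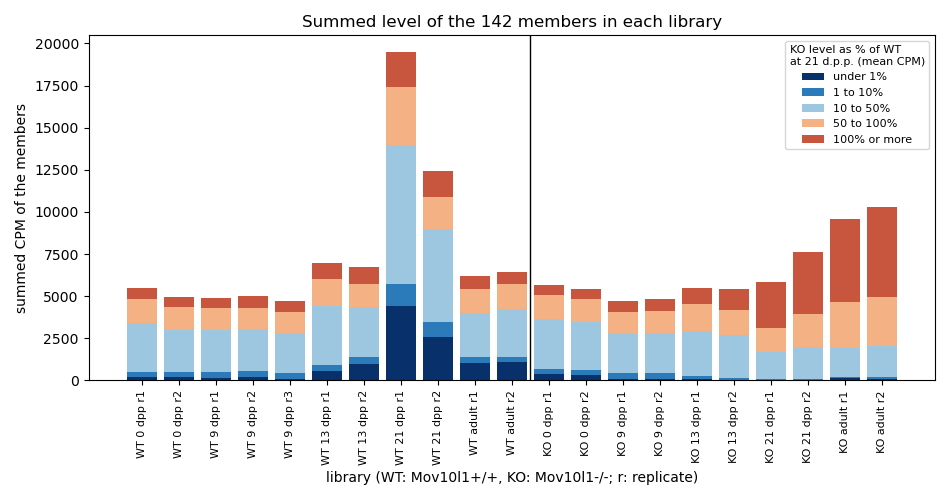
Summed CPM of the 142 members in each library, stacked by the Mov10l1-/- level at 21 dpp as a percentage of wild type, for wild type (left of the line) and Mov10l1-/- (right). The members under 1% made up 4434 and 2565 CPM in wild-type 21 dpp libraries and 8.39 and 11.8 CPM in the Mov10l1-/- ones, and the members at 100% or more dominated the adult Mov10l1-/- libraries.

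The levels within Mov10l1-/- were not used to choose the genes, so the change from 13 to 21 dpp could be tested there. Membership rested mostly on wild-type 21 dpp replicate 2, which shares a code part with Mov10l1-/- replicate 1 of that age. What these 2 libraries share may therefore enter both the choice and the test, and its part was not tested. Of 141 members tested over the 6 paired-end Mov10l1-/- libraries, 38 (27.0%) rose and 3 fell, where 6.32% of all 14802 genes tested rose and 6.42% fell. The median log2 fold change was 0.22 over the members and -0.01 over all genes, and 0.21 when 6 members with at most 3 counts in each Mov10l1-/- library of 21 dpp were set to their bound of 3 counts per library. The rises had a median log2 fold change of 1.76 and a range of 0.76 to 5.78. With 1 library of either age left out, the median was 0.17 to 0.33 over the members and -0.02 to 0.03 over all genes. Fewer members, and fewer of all genes, rose in each of these fits. With 2 libraries per group the p values measure the spread between these animals only.

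Among members with a symbol only Krt19 rose, from 2.57 and 19.2 CPM at 13 dpp to 67.9 and 101 CPM at 21 dpp (log2 fold change 3.16 ± 0.65 (SE), edgeR adjusted p = 0.00897). That call was lost without either 21 dpp library (adjusted p = 0.0467 and 0.0363). The EBP gene rose from 43.6 and 41.9 CPM to 71.1 and 89.0 CPM (1.25 ± 0.14, edgeR adjusted p = 0.000665). The largest rise was that of the unnamed gene ENSMAUG00000012920, picked after its values were seen, from 1.05 and 0.756 CPM to 33.3 and 41.9 CPM, and it measured 98.2 and 108 CPM in adult Mov10l1-/-. In each of these genes the libraries of the 2 ages did not overlap, which held for 37 of the 38 members that rose and for 97.1% of all genes that rose. Both libraries of 21 dpp lay above both of 13 dpp for 46 of the members tested (32.6%), against 14.2% of all genes tested. Overlap was judged in CPM without TMM, unlike the edgeR calls. On that scale both libraries of 21 dpp lay below for 45.1% of all genes tested, and the members' share below was not counted.

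The members that fell were H2aw, Caprin2 and the unnamed ENSMAUG00000004633. H2aw went from 119 and 94.7 CPM to 40.1 and 37.4 CPM (log2 fold change -1.07 ± 0.21 (SE), edgeR adjusted p = 0.0071) and Caprin2 from 11 and 10.7 CPM to 2.39 and 4.83 CPM (-1.27 ± 0.20, edgeR adjusted p = 0.00343). ENSMAUG00000004633 went from 333 and 203.2 CPM to 63.2 and 93.3 CPM (-1.43 ± 0.21, edgeR adjusted p = 0.00216). With a library left out in turn, the call of H2aw was lost without either 13 dpp library or without 21 dpp replicate 2 (edgeR adjusted p = 0.0136 to 0.0347), that of Caprin2 without either 13 dpp library or without 21 dpp replicate 1 (0.0111 to 0.0258), and that of ENSMAUG00000004633 without either 21 dpp library (0.0243 and 0.0176).

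The synaptonemal and telomere genes did not pass the test in this contrast. Sycp1 had a log2 fold change of -2.14 ± 0.75 (edgeR adjusted p = 0.0635) and Majin an edgeR adjusted p of 0.0479, and the libraries of 13 dpp differed widely for both. Fits without 1 library of 13 dpp hold a single library of that age, so no call of Sycp1 or Majin is read from them. Tex12 and Zcwpw1 had log2 fold changes of -0.65 ± 0.61 and 0.00 ± 0.30 (edgeR adjusted p = 0.447 and 0.997).

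**Figure D4:**
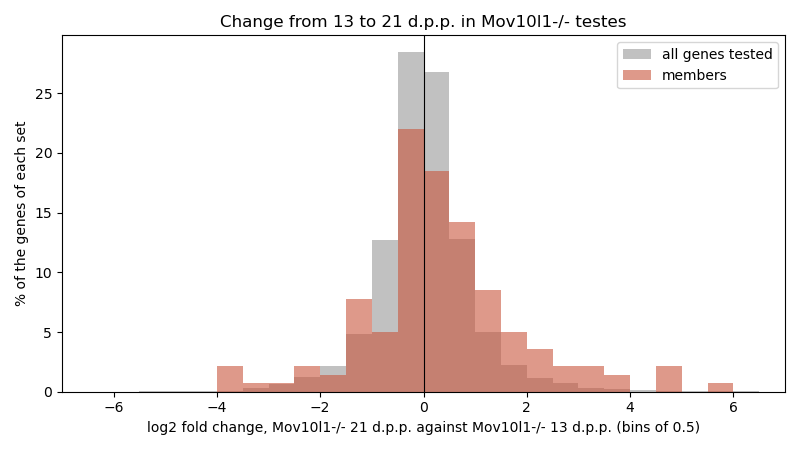
Distribution of log2 fold changes from 13 to 21 dpp in Mov10l1-/- testes for the members (red) and for all 14802 genes tested (grey), in bins of 0.5, as a percentage of the genes of each set. The members have more genes at the right, where 38 of 141 rose, and their median was 0.22 against -0.01.

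By mean CPM, without TMM, the highest Mov10l1-/- age was 0 dpp for 62 members and the adult for 57. It was 13 dpp for 9 members, 9 dpp for 8 and 21 dpp for 6. The ages of 0 and 9 dpp differ from the rest in read type. On this scale both Mov10l1-/- libraries of 21 dpp lay below both of 13 dpp for 45.1% of all genes tested and above for 14.2%. The peak ages of all genes were not counted, so these counts of members are a description. Against adult Mov10l1-/-, 43 of 141 members were lower at 21 dpp and 6 were higher, where 13.2% of all genes tested were lower and 11% higher. With any 1 of the 4 libraries left out, fewer members and fewer of all genes were called either way. The median log2 fold change in these fits was -0.40 to -0.25 over the members and -0.01 to 0.03 over all genes. Those lower at 21 dpp than in adults included Sycp1 (log2 fold change -3.85 ± 0.73, edgeR adjusted p = 0.00419), Dazl (-2.62 ± 0.42, 0.00196) and Gm364 (-5.10 ± 1.02, 0.00525). Leaving out any one of the 4 libraries ended the calls of Sycp1 and Gm364, and any but adult replicate 1 that of Dazl (edgeR adjusted p = 0.01002 to 0.0477 over these fits). They also included the EBP gene (-1.16 ± 0.14, edgeR adjusted p = 0.00045) and the KIAA1210 ortholog (-1.75 ± 0.19, 0.000311). Of the 23 members under 1% of wild type at 21 dpp 16 were lower at 21 dpp than in adult Mov10l1-/-, and of the 28 at 100% or more 9 were. The same Mov10l1-/- libraries of 21 dpp set these groups, so the counts by group are a description and nothing is read from them. Krt19 (-0.57 ± 0.58, edgeR adjusted p = 0.455) and Ptchd3 (-2.98 ± 1.40, 0.118) did not pass.

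In adults, 67 of 142 members were lower and 46 higher in Mov10l1-/- than in wild type, where 37.2% of all genes tested were lower and 37.1% higher. The median log2 fold change was -0.44 over the members and 0.14 over all genes. All 23 members under 1% of wild type at 21 dpp were lower in adult Mov10l1-/-, with log2 fold changes from -7.59 to -1.08, and all 28 at 100% or more were higher, from 0.68 to 3.99. Krt19 was higher by 3.04 ± 0.20 (SE) on the log2 scale (edgeR adjusted p = 8.44e-06) and Sycp1 was lower, at -4.15 ± 0.20 (edgeR adjusted p = 2.12e-06). Abca5 and Rint1, lower at 21 dpp, had adult log2 fold changes of -0.04 ± 0.15 and -0.06 ± 0.12 (edgeR adjusted p = 0.816 and 0.668).

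The Mov10l1-/- change from 13 to 21 dpp and the adult genotype contrast share no library, but the adult wild-type libraries helped to choose the members, which had to be lower there than at 21 dpp. The adult counts of members are therefore a description. Of the 38 members that rose in Mov10l1-/-, 33 were higher and 0 lower in adult Mov10l1-/- than in wild type by edgeR, and these 33 were among the 46 members higher in adults. Of the 103 other members tested in both, 13 were higher and 66 lower. Among all genes tested in both, 73.2% of those that rose and 38.5% of the rest were higher in adult Mov10l1-/-. The members' share of 86.8% stands beside the 73.2% of all risen genes, and that difference was not tested.

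**Figure D5:**
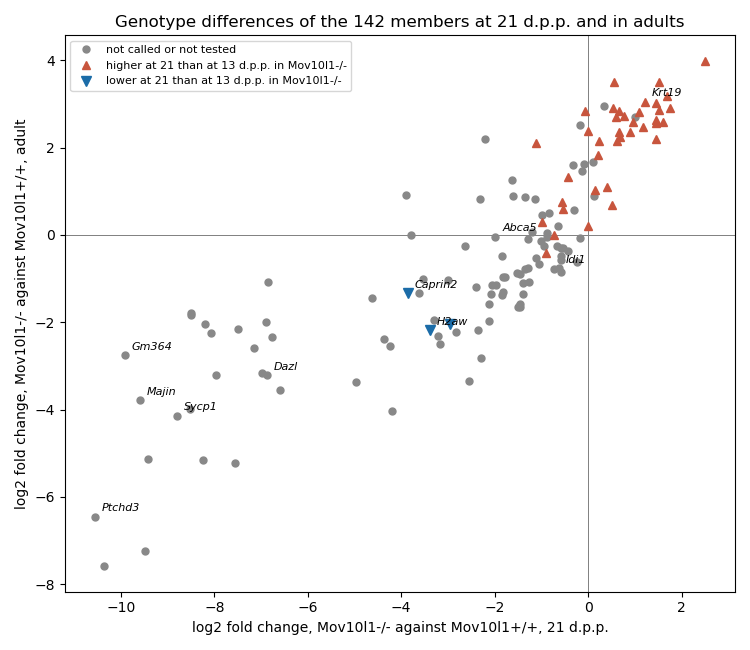
Log2 fold change of Mov10l1-/- against Mov10l1+/+ at 21 dpp (horizontal) and in adults (vertical) for the 142 members, with triangles for members that rose (red) or fell (blue) from 13 to 21 dpp in Mov10l1-/-. Of the 38 members that rose, 30 lie at the upper right, 6 at the upper left and 2 at the lower left, and the 23 members under 1% of wild type at 21 dpp lie at the lower left.

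Some markers of somatic cells were also higher in Mov10l1-/- at 21 than at 13 dpp. Of 17 Sertoli cell markers 5 had an identifier (Clu, Inha, Inhbb, Cst12 and Defb119). Their sum was 3539 to 4090 CPM in Mov10l1-/- at 13 dpp, 4017 to 5679 CPM at 21 dpp and 5201 to 5810 CPM in adults, against 1420 to 2430 CPM and 629 to 829 CPM in wild type at the last 2 ages. Of 10 Leydig cell markers only Cyp11a1, an enzyme of steroid synthesis, and Ptgds had one. Their sum was 289 to 337 CPM, 836 to 983 CPM and 980 to 1217 CPM in Mov10l1-/- at the 3 ages, and 182 to 289 CPM and 71.2 to 98.1 CPM in wild type at 21 dpp and in adults. Both Leydig markers rose from 13 to 21 dpp in Mov10l1-/-, as did 2 of the 5 Sertoli markers (Cst12 and Defb119) while 1 fell (Inhbb). Of all genes tested 6.32% rose and 6.42% fell. Most of the Sertoli sum was Clu, with Mov10l1-/- means of 2623 CPM at 13 dpp and 3513 CPM at 21 dpp. Clu was not called (edgeR adjusted p = 0.0182), and the Sertoli sums of these ages overlapped. The names come from lists of genes that differed between genotypes, so the markers with an identifier are a selected subset and nothing is read from these counts. Of 16 markers of peritubular, vascular, immune and blood cells 6 had an identifier, of which 2 fell by edgeR (Myh11 and Tagln, genes of smooth muscle, at -0.73 and -2.49 on the log2 scale). Their sum was 535 to 634 CPM in Mov10l1-/- at 13 dpp and 207 to 308 CPM at 21 dpp. The 4 of 15 spermatocyte markers with an identifier, Sycp1 among them, summed to 801 to 1926 CPM in wild type and 3.84 to 5.66 CPM in Mov10l1-/- at 21 dpp. The 10 of 17 spermatogonial markers with an identifier summed to 133 to 233 CPM in wild type and 41.0 to 69.2 CPM in Mov10l1-/- at 21 dpp. In adults their sum was 86.7 to 89.6 CPM in wild type and 180.5 to 186.7 CPM in Mov10l1-/-. Most of the latter came from Kit (means of 7.92 CPM in wild type and 103 CPM in Mov10l1-/-) and Etv5 (9.35 and 44.2 CPM). Id4 went the other way, with 50.1 and 5.25 CPM. By edgeR 4 of the 10 were higher and 1 lower in adult Mov10l1-/-, where 37.1% and 37.2% of all genes tested were. The sum is thus no measure of spermatogonia. No marker with an identifier was at 0 in all libraries, and the part of cell composition in these results was not tested.

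Fewer members were called between genotypes at earlier ages. At 0 dpp 6 of 140 members were higher and 1 lower in Mov10l1-/-, where 1% of all genes tested were higher and 0.931% lower. Both Mov10l1-/- libraries share a code part that no wild-type library of this age has, so genotype and that part cannot be told apart. Dazl (log2 fold change 0.83 ± 0.13, edgeR adjusted p = 0.0049), Tceanc (1.26 ± 0.20, 0.00452) and Ptchd3 (1.19 ± 0.23, 0.00983) were among the higher, and ENSMAUG00000004259 was the lower. Tceanc is named for domains of a transcription elongation factor, and measured 4.43 and 3.91 CPM in wild type against 10.5 and 9.08 CPM. Without wild-type replicate 2 none of these 3 genes stayed below the threshold (edgeR adjusted p = 0.0117 to 0.0401), nor did Ptchd3 without Mov10l1-/- replicate 1 (0.0198). By DESeq2 17 members were higher and 3 lower, where 2.24% and 2.11% of all genes tested were called, and edgeR called 0 members in a joint fit of 20 libraries, in which 34 were higher and 11 lower at an unadjusted p below 0.05, where 6.02% and 7.28% of all genes tested were. With any 1 library left out, the median log2 fold change was 0.105 to 0.243 over the members and -0.02 to 0.02 over all genes tested. Among these fits, calls of members and of all genes were fewest without wild-type replicate 2.

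At 9 dpp 14 of 140 members were lower and 2 higher in Mov10l1-/- against wild-type replicates 1 and 2, the libraries the study used, where 3.19% of all genes tested were lower and 0.559% higher. Both Mov10l1-/- libraries bear the code of 1 animal, so their spread may be technical and the p values too small. The lower ones included Dazl, Tex12, Majin, Sycp1 and Gm364. In wild-type replicate 3, left out of that fit, Sycp1 was at 7.54 CPM and Tex12 at 0.881 CPM, below both Mov10l1-/- libraries (8.09 and 9.40 CPM, and 1.05 and 1.08 CPM), whereas Dazl was at 16.8 CPM, above them (9.34 and 10.6 CPM). With all 3 wild-type libraries Krt19 alone was lower (log2 fold change -1.80 ± 0.21, edgeR adjusted p = 0.00819) and Ptchd3 alone higher. Krt19, above wild type at 21 dpp, thus measured 1.83 and 2.06 CPM in Mov10l1-/- against 5.08 to 8.33 CPM in wild type at 9 dpp. Ptchd3 measured 0.776 and 0.955 CPM against 0.0176 to 0.0957 CPM, or 1 to 6 counts. It passed the filter on low counts only through the Mov10l1-/- libraries, so its call is no support.

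At 13 dpp 1 of 136 members was lower in Mov10l1-/- and 0 were higher by edgeR, where 0.121% of all genes tested were lower and 0% higher. The lower one was the unnamed ENSMAUG00000007518, with 12.6 and 17.2 CPM in wild type and 0.560 and 0.320 CPM in Mov10l1-/-, or 8 and 11 counts. It passed the filter on low counts only through the wild-type libraries, which the rule also used, so its call is no support. With the replicate number as a block, which at 13 dpp pairs the animals that share a code, edgeR called 17 members lower and 0 higher, where 3.46% of all genes tested were lower and 0.143% higher. At an unadjusted p below 0.05, 28 members were lower and 2 higher without the block, where 9.17% and 0.966% of all genes tested were. DESeq2 called 13 lower and 0 higher, where it called 1.65% and 0% of all genes tested. Whether these members passed the filter through the wild-type libraries alone was not checked, so their counts are a description. Tex12, for one, had a Mov10l1-/- mean of 0.481 CPM at this age, below the filter's cutoff of 0.849 CPM. Dazl and Plekhg4, a gene with a RhoGEF domain, missed the threshold at 13 dpp, with log2 fold changes of -4.35 ± 0.51 and -3.92 ± 0.51 (edgeR adjusted p = 0.0133 and 0.0156). With any 1 library left out, the median log2 fold change was -0.29 to -0.21 over the members and -0.003 to 0.04 over all genes tested. Dazl and Plekhg4 passed by DESeq2. Fits with 1 library left out hold a single library in 1 genotype, so no call of these genes is read from them. Plekhg4 measured 12.7 and 26.8 CPM in wild type and 1.54 and 0.960 CPM in Mov10l1-/- at that age.

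Most other named genes of meiosis, the piRNA pathway, germ-cell RNA regulation, testis histones, energy metabolism and cilia were not members. Of 173 genes on 10 such lists, 58 had an identifier and 5 were members (Sycp1, Tex12, Zcwpw1, Majin and Dazl). Rnf17 and Slc25a31, also on these lists, met the rule and were left out by name. Of all 22285 genes, 146 met the rule. The genes with an identifier are a selected subset, so nothing is read from these shares. Of the 57 tested, 57 were lower and 0 higher in Mov10l1-/- at 21 dpp by edgeR, where 20.9% of all genes tested were lower, with log2 fold changes from -10.2 to -0.90 (Cpeb1), although their names come from lists of genes that differed between genotypes and are not independent of that direction. Syce1, another gene of the synaptonemal central element, measured 35.2 CPM (mean) in wild type at 21 dpp and 63.0 CPM in adults, and so stayed outside (L = -1.84). Spata22, a gene of meiotic recombination, measured 51.8 and 41.9 CPM (means) at these ages and had an L of -0.18. From 13 to 21 dpp in Mov10l1-/-, 4 of the 57 fell (H2bc1, H1f1, H2ax and Kif27) and 1 rose, where 6.42% of all genes tested fell and 6.32% rose. The gene that rose was Cpeb1, an mRNA-binding translation factor, from a mean of 1.85 to 32.4 CPM (log2 fold change 4.49, edgeR adjusted p = 2.9e-05).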

How the data were processed

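Per the study's methods, reads were aligned to MesAur1.0 with STAR 2.7.3a and counted over Ensembl release 99 exons with featureCounts 2.0.0, reads of several loci or genes being split as fractions. The deposited values are the resulting estimated counts per gene, not normalized by the authors, and were rounded before testing. The labels call the molecule polyA RNA, whereas the protocol describes rRNA depletion. CPM used the column totals, without TMM. Groups came from the sample titles.

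The members and lists were chosen with earlier results of these data known. edgeR 4.0.16 in R 4.3.3 (TMM, filterByExpr, quasi-likelihood test, Benjamini-Hochberg adjustment, adjusted p below 0.01) was fitted over all genes: each age for genotype (2 against 2 libraries), and the 6 paired-end Mov10l1-/- libraries for age. DESeq2 1.42.0, other filters, scalings, sets of libraries and replicate blocks were alternatives. Summaries used Python 3.11.15, pandas 2.3.3 and numpy 2.4.6. The test was tried on simulated data.

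Text names the 12 members of highest L with a symbol, the 3 of highest L, members on fixed lists, the 3 of highest Mov10l1-/- share, those beside the limits, Mov10l1, and a few unnamed genes picked afterwards. The rule's places just inside rank 200 were replaced by the last 3 members. Same-numbered deviations correlated at -0.191 (21 dpp) to 0.152 (13 dpp), and the numbers match shared code parts only at 13 dpp. No promoter or protein sequences were used here. Libraries of no group agreed within sampling noise, also those that bear 1 animal code, since chi-square per degree of freedom was at least 19.7 within each group.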

Additional observations from a re-analysis of the deposited data

How the results depend on the processing

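Counts of members called varied with the setting, and so did the counts over all genes tested. Fits with 1 library left out hold a single library in 1 of the groups compared. Calls over all genes moved in these fits as well, so the ranges below are a description and are not read as a property of the members. In Mov10l1-/- from 13 to 21 dpp the range over leave-one-out fits was 21 to 36 higher and 1 to 9 lower, and for 21 dpp against adults 13 to 18 lower and 0 to 3 higher. Between genotypes it was 0 to 5 lower and 1 to 16 higher at 0 dpp, 10 to 21 lower and 1 to 10 higher at 9 dpp, 5 to 10 lower at 13 dpp, 62 to 89 lower and 9 to 19 higher at 21 dpp, and 61 to 67 lower and 42 to 48 higher in adults. At 21 dpp the 9 higher calls were those without Mov10l1-/- replicate 2.

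At an adjusted p below 0.05, 13 members fell from 13 to 21 dpp in Mov10l1-/- and 13 were higher at 21 dpp than in adults. Between genotypes 3 were lower and 22 higher at 0 dpp, 27 lower and 7 higher at 9 dpp, 10 lower at 13 dpp and 24 higher at 21 dpp. Of all genes tested the shares were, in this order, 15.1%, 20%, 3.57% and 3.83%, 9.65% and 4.34%, 1.31%, and 27.1%. Without a filter on low counts the members were 15, 10, 5 and 25, 22 and 5, 19, and 25. Over all genes they were 1828, 2524, 597 and 724, 1190 and 478, 428, and 4357, of 20303 to 21032 tested. DESeq2 gave 7, 10, 3 and 17, and 6 higher at 9 dpp and 13 lower at 13 dpp. Its shares of all genes tested were 11.3%, 13.2%, 2.11% and 2.24%, 2.37%, and 1.65%. A joint fit of 20 libraries gave 7 that fell, 0 and 0 at 0 dpp, 2 lower and 0 higher at 9 dpp and 17 lower at 13 dpp. Over all 18014 genes tested these were 1171, 35 and 31, 104 and 16, and 649. RLE size factors gave 2 lower at 0 dpp (173 of 16333 genes) and moved the adult median of all genes from 0.14 to -0.06 on the log2 scale. At least 10 counts in every library gave 0 higher at 9 dpp (62 of 14812 genes) and 0 lower at 13 dpp (4 of 11361 genes). With all 3 wild-type libraries of 9 dpp, 1 member was lower and 1 higher, against 54 and 9 of 15776 genes.

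The replicate block gave 5 lower and 23 higher at 0 dpp and 17 lower at 13 dpp, where it called 4.08%, 4.45% and 3.46% of all genes tested. It ended the Krt19 call from 13 to 21 dpp (edgeR adjusted p = 0.0133) and kept the other counts of members within 1.5-fold. The crossed replicate block was added after seeing the data because the same numbers correlated under -0.1. At 21 dpp it joins the 2 animals that share a code part. It gave 25 lower and 9 higher at 9 dpp, 94 lower and 22 higher at 21 dpp, and 40 higher and 3 lower in Mov10l1-/- from 13 to 21 dpp. Over all genes these were 1458 and 629 of 15569, 3932 and 3687 of 14834, and 960 and 970 of 14802.

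Members chosen with TMM-scaled totals gave 8 that fell in Mov10l1-/-, 2 lower at 0 dpp and 1 higher at 9 dpp. Members chosen without wild-type 21 dpp replicate 2 gave 13 that fell, 11 higher at 0 dpp, 1 higher at 9 dpp, 138 lower and 9 higher at 21 dpp, and 117 lower in adults. For both sets the shares of all genes tested are those of the main fits, given above with each contrast. Of the single genes with a test in the text, 3 changed direction, none of them called. Zcwpw1 from 13 to 21 dpp in Mov10l1-/- was at -0.011 with the replicate block, at -0.0262 with the crossed replicate block and at -0.339 to 0.239 with a library left out. Abca5 in adults was at 0.14 in the joint fit and at -0.25 to 0.16 with a library left out, and Rint1 at 0.13 in the joint fit. Pseudocounts of 5 CPM and leaving out wild-type replicate 3 of 9 dpp kept all 142 members. The causes of these changes were not tested. The shallowest library, of 13 dpp, held 3550217 counts, and the part of its depth in the calls was not tested.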
